A study of Mus musculus with 9 samples.

Results

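The replication-dependent histone genes of mouse brain were examined one by one on 9 arrays. They were chosen by name: a gene counted as a member when its older symbol started with Hist1h, Hist2h, Hist3h or Hist4h and a probe set carried that gene alone. The gene table of the array uses the current symbols, so the older ones were looked up through the Entrez identifier among the RefSeq synonyms. Of 70 mouse genes with such a symbol, 31 had a probe set of their own, out of 19938 genes with a value. They comprised 5 H1, 5 H2A, 11 H2B, 3 H3 and 7 H4 genes. Chromosome 13 holds 23 of them, chromosome 3 holds 4, chromosome 11 holds 3 and chromosome 6 holds 1.

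Brain RNA of 3 groups was hybridised to GeneChip Mouse Gene 1.0 ST arrays, 3 arrays per group. The HPYD group was made up of APP/PS1 transgenic mice on a C57/6J background that received the β-sheet breaker peptide HPYD in saline through the nose, at 33 mg/mL and 5 μL per day for 30 days. The model group was made up of APP/PS1 transgenic mice that received the same volume of saline. The control group was made up of C57/6J mice without the transgenes, also given saline. Purchase of the transgenic animals was at 8 months of age, and the controls are described as of like age. No promoter of the transgenes is named in the labels or the methods. They also do not say whether each array was a separate mouse, so p-values here cover the spread between arrays alone, which may be technical. The values are log2 expression values per probe set as deposited, and a difference of 1 is a doubling of the signal. In bulk brain RNA, fewer cells of a type and less RNA per cell cannot be told apart.

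Core histones H2A, H2B, H3 and H4 form the protein spool of the nucleosome, and linker histone H1 binds where DNA enters and leaves it. The replication-dependent genes lie in clusters, lack introns as a rule, and are transcribed mainly while a cell copies its DNA. Their messages end in a stem-loop in place of a poly(A) tail and are bound by SLBP. Most cells of the adult brain no longer divide, and dividing precursors are a known source of these messages there. They are not the only source, as the member H2bc21 is known from olfactory neurons. Many copies are nearly identical in their coding parts, so a probe set assigned to one gene can also catch its relatives, and single-gene values are uncertain to that extent.

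The control region just before the start is shown for the members on which the results turn, and for H2aw as a member with nearly the same value on all arrays. RefSeq promoter windows on GRCm38.p6, with 250 bases before and 50 bases after the start, matched 26 of the 31 members. The last 150 bases before the start are printed 5′ to 3′ on the gene's strand. Capitals mark 3 motifs on either strand. The first is CCAAT, which reads ATTGG where it lies on the opposite strand. The second is the TATA box, searched as TATAAA and TTTATA, of which the printed stretches hold the first form alone. The third is the octamer known from H2B promoters, ATTTGCAT, which reads ATGCAAAT on the opposite strand. They do not overlap one another. H2ac4 lies at chr13:23750938-23751087 on the plus strand and H2ac15 at chr13:21753913-21754062 on the minus strand. H2bc3 lies at chr13:23746584-23746733 and H2bc14 at chr13:21721894-21722043, both on the plus strand. H1f5 lies at chr13:21780626-21780775 on the minus strand, H4c4 at chr13:23581418-23581567 and H2aw at chr11:58954535-58954684, both on the plus strand.
H2ac4: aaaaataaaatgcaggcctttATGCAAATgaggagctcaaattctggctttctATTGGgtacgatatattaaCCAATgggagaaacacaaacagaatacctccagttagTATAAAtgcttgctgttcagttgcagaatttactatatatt
H2ac15: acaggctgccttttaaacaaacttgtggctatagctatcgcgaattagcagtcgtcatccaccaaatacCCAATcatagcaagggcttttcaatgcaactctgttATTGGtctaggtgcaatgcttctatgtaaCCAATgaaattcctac
H2bc3: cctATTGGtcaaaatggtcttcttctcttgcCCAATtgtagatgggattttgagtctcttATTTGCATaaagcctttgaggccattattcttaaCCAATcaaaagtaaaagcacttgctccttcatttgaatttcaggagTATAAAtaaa
H2bc14: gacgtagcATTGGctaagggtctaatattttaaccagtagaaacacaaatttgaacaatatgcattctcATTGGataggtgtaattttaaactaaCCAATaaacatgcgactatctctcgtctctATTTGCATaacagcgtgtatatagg
H1f5: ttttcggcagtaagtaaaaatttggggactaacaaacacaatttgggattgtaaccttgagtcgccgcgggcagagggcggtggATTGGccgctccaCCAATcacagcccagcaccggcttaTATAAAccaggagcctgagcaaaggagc
H4c4: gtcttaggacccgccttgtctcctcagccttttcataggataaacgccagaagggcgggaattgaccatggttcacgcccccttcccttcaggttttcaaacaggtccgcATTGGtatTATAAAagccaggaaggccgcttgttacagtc
H2aw: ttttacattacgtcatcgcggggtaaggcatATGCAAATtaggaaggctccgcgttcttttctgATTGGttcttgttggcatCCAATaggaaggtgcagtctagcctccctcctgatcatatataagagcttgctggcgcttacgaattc

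The octamer was found in 4 of 5 H2A windows and 5 of 8 H2B windows, and in 0 of 5 H1, 0 of 2 H3 and 0 of 6 H4 windows, against 1.74% of all 32851 promoter windows. CCAAT was found in 22 of the 26 windows (84.6%), with 2 of 6 in the H4 class, against 37.4% of all windows. TATAAA was found in 16 of 26 (61.5%), against 13.6% of all windows. The windows of H2ac1 and H2bc1 overlap, as do those of H2ac8 and H2bc8, because each pair is transcribed in opposite directions from one stretch. The 9 members with an octamer had model minus control differences between 0.03 and 0.77 (median 0.22), and the 17 without had differences between -0.15 and 0.76 (median 0.16). Both sets held members with large and with small differences.

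Before any comparison, the labels were checked against 4 genes. App was 12.98, 13.01 and 12.53 in HPYD arrays 1, 2 and 3, 12.99, 12.95 and 13.02 in model arrays, and 12.57, 12.56 and 12.62 in control arrays. Prnp was 12.54, 12.47 and 11.52 in HPYD arrays, 12.55, 12.42 and 12.50 in model arrays, and 11.78, 11.81 and 11.76 in control arrays. The array labelled HPYD group 3 therefore lay below every other APP/PS1 array for both genes and below the controls. Xist, transcribed from the inactive X chromosome, was 11.33, 11.47 and 5.22 in HPYD arrays, 11.18 to 11.78 in model arrays and 5.20 to 5.69 in control arrays. Kdm5d, a Y-linked gene, was 5.03, 5.23 and 7.84 in HPYD arrays, 4.51 to 4.97 in model arrays and 7.62 to 7.77 in control arrays. Sex and genotype therefore cannot be told apart in the model against control comparison, and the array labelled HPYD group 3 goes against its label, so results that rest on it are also given without it. Over all 35556 probe sets, array medians lay between 6.69 and 6.82 and correlations between arrays between 0.976 and 0.995. Of the members 8 of 31 (25.8%) had one identical value in 3 or more arrays, as had 25.2% of all genes. Among them were H2aw, with one value in 5 arrays, and H1f6, with one value in 6.

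Histone gene levels were higher in model arrays 1 and 2 than in the controls, and less so in model array 3 and in the HPYD arrays. As a level, the median difference of the 31 genes from their own control means was 0.03, 0.06 and -0.01 in HPYD arrays 1, 2 and 3, 0.19, 0.21 and 0.05 in model arrays 1, 2 and 3, and -0.03, 0.02 and 0.02 in control arrays 1, 2 and 3. The 3 model arrays thus lay above all controls, with model array 3 nearest to them. The same median over all 19938 genes lay between -0.02 and 0.03 on every array. Model array 2 gave the highest value of the 9 arrays for 16 of the 31 genes (51.6%), against 14.2% of all genes. For model array 1 this was 5 genes (16.1%), against 8.28% of all genes. A difference of over 0.25 above the control mean was reached by 13 of the 31 genes in model array 2 (against 15.5% of all genes), 10 in model array 1 (8.77%) and 2 in model array 3 (3.23%). In HPYD arrays 1, 2 and 3 it was reached by 2, 5 and 1 genes, against 4.58%, 9.89% and 16% of all genes. In the array labelled HPYD group 3, 6 of the 31 genes (19.4%) lay more than 0.25 below the control mean, against 13% of all genes.

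**Figure D1:**
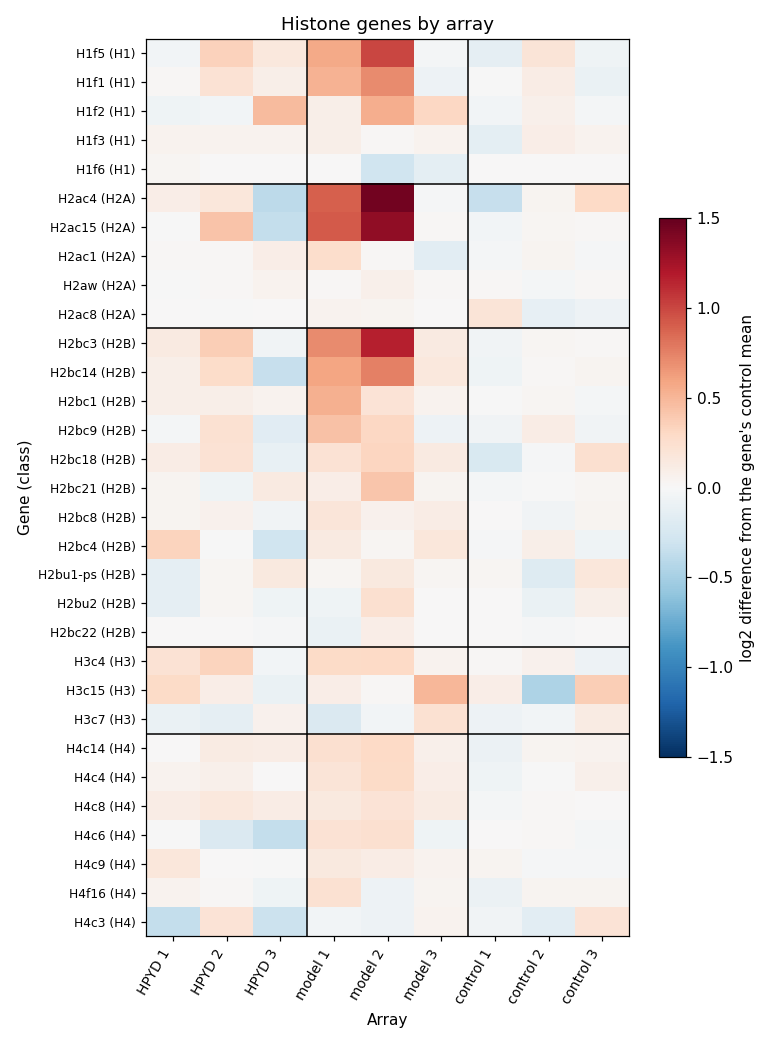
Heat map of the 31 histone genes (rows, grouped by class) on the 9 arrays (columns, HPYD, model and control), coloured by the log2 difference from each gene's control mean. The strongest colour stands in model arrays 1 and 2 at H2ac4, H2ac15, H2bc3, H2bc14, H1f5 and H1f1, and model array 3 is close to the controls for these genes.

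The linker histone class held the somatic genes H1f1, H1f2, H1f3 and H1f5 and the testis gene H1f6. H1f5 was 7.57, 7.95 and 7.76 in HPYD arrays 1, 2 and 3, 8.17, 8.61 and 7.57 in model arrays, and 7.47, 7.80 and 7.54 in control arrays. Model arrays 1 and 2 were above every other array, and model array 3 lay among the controls. H1f1 was 7.71, 7.92 and 7.79 in HPYD arrays, 8.22, 8.41 and 7.62 in model arrays, and 7.70, 7.81 and 7.60 in control arrays, with the same arrays on top. H1f2 was 8.70, 8.72 and 9.23 in HPYD arrays, 8.85, 9.31 and 9.07 in model arrays, and 8.72, 8.84 and 8.73 in control arrays. It was the 1 linker gene whose model and control arrays did not overlap, and here the array labelled HPYD group 3 was high as well. H1f6 was 5.53, 5.51 and 5.51 in HPYD arrays, 5.51, 5.21 and 5.37 in model arrays and 5.51 in all 3 control arrays, so that it ran the other way. The class medians were 0.01, 0.05 and 0.08 above the control mean in HPYD arrays 1, 2 and 3, and 0.09, 0.55 and -0.03 in model arrays 1, 2 and 3, with -0.04, 0.10 and -0.03 in the controls.

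Of the H2A genes, 2 had model minus control differences of over 0.7 and 3 had differences under 0.05. H2ac15 was 9.20, 9.63 and 8.84 in HPYD arrays, 10.12, 10.53 and 9.22 in model arrays, and 9.16, 9.23 and 9.22 in control arrays. H2ac4 was 5.01, 5.08 and 4.52 in HPYD arrays, 5.81, 6.35 and 4.89 in model arrays, and 4.56, 4.95 and 5.21 in control arrays. For both genes model arrays 1 and 2 were the highest of the 9, model array 3 lay within the range of the controls, and the array labelled HPYD group 3 was the lowest. H2aw, the H2A gene of the small cluster on chromosome 11, was 10.63, 10.65 and 10.68 in HPYD arrays, 10.65, 10.71 and 10.65 in model arrays, and 10.65, 10.60 and 10.65 in control arrays. H2ac1, known from testis, and H2ac8 had model minus control differences of 0.04 and 0.03, though H2ac1 ranged from 7.39 in model array 3 to 7.81 in model array 1, and H2ac8 from 3.47 in control array 2 to 3.78 in control array 1.

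The H2B class was the largest. H2bc3 was 6.59, 6.83 and 6.40 in HPYD arrays, 7.17, 7.63 and 6.59 in model arrays, and 6.41, 6.50 and 6.48 in control arrays. H2bc14 was 8.53, 8.72 and 8.10 in HPYD arrays, 9.04, 9.20 and 8.60 in model arrays, and 8.39, 8.46 and 8.49 in control arrays. All 3 model arrays were above all 3 controls for both genes, and HPYD array 2 was the highest of its group. H2bc1, known from testis, was 5.26, 5.26 and 5.23 in HPYD arrays, 5.70, 5.38 and 5.22 in model arrays, and 5.16, 5.21 and 5.15 in control arrays, again without overlap of model and control. The members on chromosome 3 were H2bc18 (model minus control 0.22) and H2bc21 (0.18), and H2bc21 codes for an H2B variant known from mouse olfactory neurons. H2bc18 was 7.57, 7.68 and 7.35 in HPYD arrays, 7.67, 7.78 and 7.59 in model arrays, and 7.24, 7.44 and 7.71 in control arrays, and its groups overlapped. H2bc21 was 6.22, 6.11 and 6.31 in HPYD arrays, 6.28, 6.59 and 6.22 in model arrays, and 6.15, 6.18 and 6.21 in control arrays, where the lowest model value was just above the highest control value. H2bu2 and the transcribed pseudogene H2bu1-ps on chromosome 11 had differences of 0.06 each. H2bc4 was 11.46, 11.13 and 10.83 in HPYD arrays, 11.26, 11.16 and 11.30 in model arrays, and 11.11, 11.21 and 11.07 in control arrays, and H2bc9 was 9.02, 9.28 and 8.88 in HPYD arrays, 9.49, 9.36 and 8.98 in model arrays, and 8.994, 9.162 and 8.998 in control arrays. Both overlapped between groups.

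Only 3 H3 genes had a probe set of their own. H3c4 was 5.68, 5.80 and 5.43 in HPYD arrays, 5.75, 5.77 and 5.52 in model arrays, and 5.48, 5.54 and 5.39 in control arrays. H3c15, on chromosome 3, was 5.43, 5.24 and 5.05 in HPYD arrays, 5.24, 5.16 and 5.64 in model arrays, and 5.24, 4.69 and 5.51 in control arrays. H3c7 was 4.42, 4.38 and 4.58 in HPYD arrays, 4.30, 4.47 and 4.74 in model arrays, and 4.44, 4.47 and 4.64 in control arrays. The groups overlapped for all 3, and model array 3, not model array 2, was the highest of the model arrays for H3c7 and H3c15.

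Among the H4 genes, H4c4, H4c8 and H4c14 had SDs between 0.02 and 0.12 within each group, whereas H4c3 and H4c6 had SDs of 0.31 and 0.18 in the HPYD group. H4c8 was 6.28, 6.33 and 6.28 in HPYD arrays, 6.31, 6.36 and 6.29 in model arrays, and 6.14, 6.18 and 6.17 in control arrays, so that both APP/PS1 groups, the array labelled HPYD group 3 included, lay above all controls. H4c4 was 12.43, 12.45 and 12.38 in HPYD arrays, 12.57, 12.66 and 12.47 in model arrays, and 12.31, 12.37 and 12.45 in control arrays. H4c14, on chromosome 3, was 10.48, 10.59 and 10.59 in HPYD arrays, 10.72, 10.78 and 10.55 in model arrays, and 10.39, 10.52 and 10.53 in control arrays. For H4c4 and H4c14 the lowest model value was just above the highest control value. H4c6 was 8.30, 8.09 and 7.95 in HPYD arrays, 8.53, 8.55 and 8.25 in model arrays, and 8.32, 8.33 and 8.28 in control arrays, with HPYD array 2 and the array labelled HPYD group 3 below all others. H4f16, the lone H4 gene on chromosome 6, was 9.03, 8.99 and 8.91 in HPYD arrays, 9.20, 8.90 and 9.02 in model arrays, and 8.89, 9.02 and 9.02 in control arrays.

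**Figure D2:**
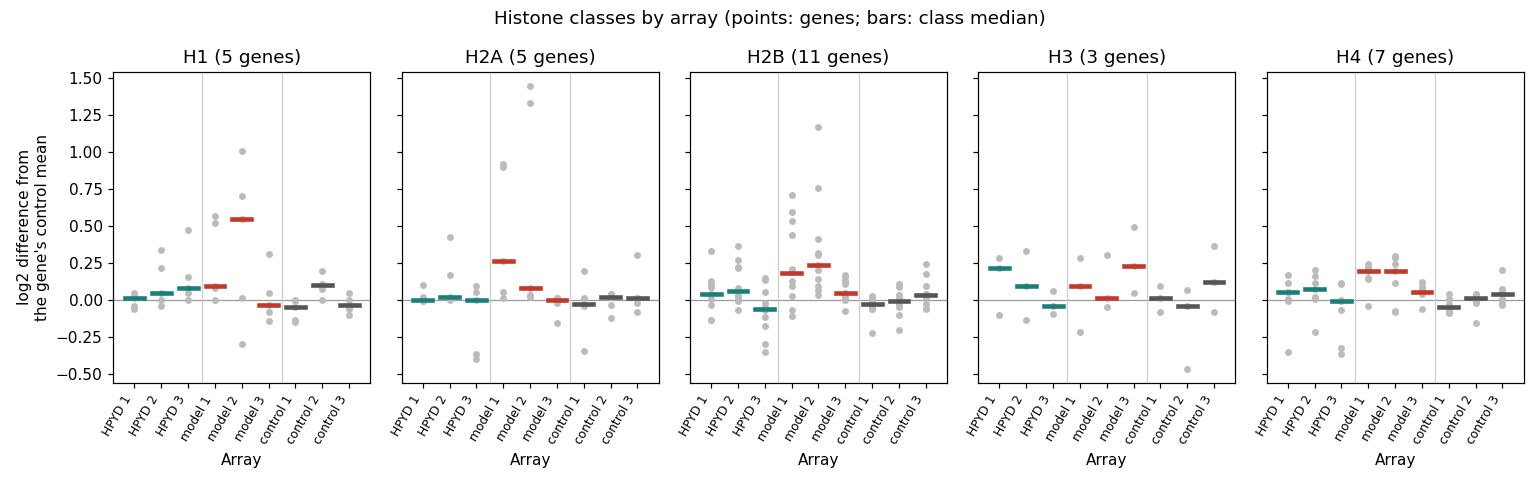
Log2 difference from each gene's control mean (vertical axis) on each of the 9 arrays (horizontal axis), 1 panel per histone class, with grey points for genes and coloured bars for the class median. The class medians in model arrays 1 and 2 were 0.20 each for H4 and 0.19 and 0.24 for H2B, against 0.05 in model array 3 for both classes.

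Model and control mice were compared to ask how the transgenic brains differ. Of the 31 genes, 27 had the higher mean in the model group, against 45% of all genes, and the median log2 fold change was 0.16, against -0.01 over all genes. An unadjusted p under 0.05 in limma's moderated test was reached by 7 genes, all higher in the model group: H2ac15, H2bc1, H2bc3, H2bc14, H4c4, H4c8 and H4c14. Over all genes 4.92% reached it in either direction, 2.87% with a higher and 2.05% with a lower model value. All model arrays lay above all control arrays for 10 members, against 4.83% of all genes, and below them for 0 members, against 4.68% of all genes. These were 5 H2B genes, 4 H4 genes and 1 H1 gene. After the Benjamini-Hochberg adjustment over all genes, 0 members and 0% of all genes passed, and the lowest adjusted p of a member was 0.859.

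H2bc3 averaged 7.13 ± 0.52 in the model group and 6.46 ± 0.05 in the control group (SD, n = 3 arrays each). Its log2 fold change was 0.67 (standard error 0.23). H2ac4 differed by 0.77 (standard error 0.35) and H2ac15 by 0.76 (standard error 0.32), and both had a wider spread in the model group, with SDs of 0.74 and 0.67. H2bc14 differed by 0.50 (standard error 0.19) and H2bc1 by 0.26 (standard error 0.11). Among the H4 genes, H4c8 had a log2 fold change of 0.16 (standard error 0.05), and H4c4 differed by 0.19 (standard error 0.07). The linker genes H1f5 and H1f1 differed by 0.51 (standard error 0.24) and 0.38 (standard error 0.18), and they and H2ac4 did not reach an unadjusted p under 0.05. The adjusted p of each gene named here was 0.859 from limma.

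The class medians of the log2 fold changes between model and control were 0.31 for H1, 0.04 for H2A, 0.18 for H2B, 0.20 for H3 and 0.13 for H4. The number of genes at an unadjusted p under 0.05 was 0 of 5 for H1, 1 of 5 for H2A, 3 of 11 for H2B, 0 of 3 for H3 and 3 of 7 for H4. Along chromosome 13, in the order of the RefSeq assembly, the measured members H2bc14, H2ac15 and H1f5 follow each other with differences of 0.50, 0.76 and 0.51. H2bc3, H2ac4 and H1f1, with 0.67, 0.77 and 0.38, follow each other as well. The members between these runs had differences from -0.15 for H1f6 to 0.31 for H1f2, which lies next to H2bc3. The runs were picked out with the values known.

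The count of 7 genes depended on single arrays. It was 1 without model array 2, 4 without model array 1 and 13 without model array 3. It was 1 without control array 1 and 3 without control array 2. The share of all genes was not counted in these fits, so the counts describe the members alone. The median log2 fold change kept its sign in each of these fits, between 0.12 and 0.17.

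**Figure D3:**
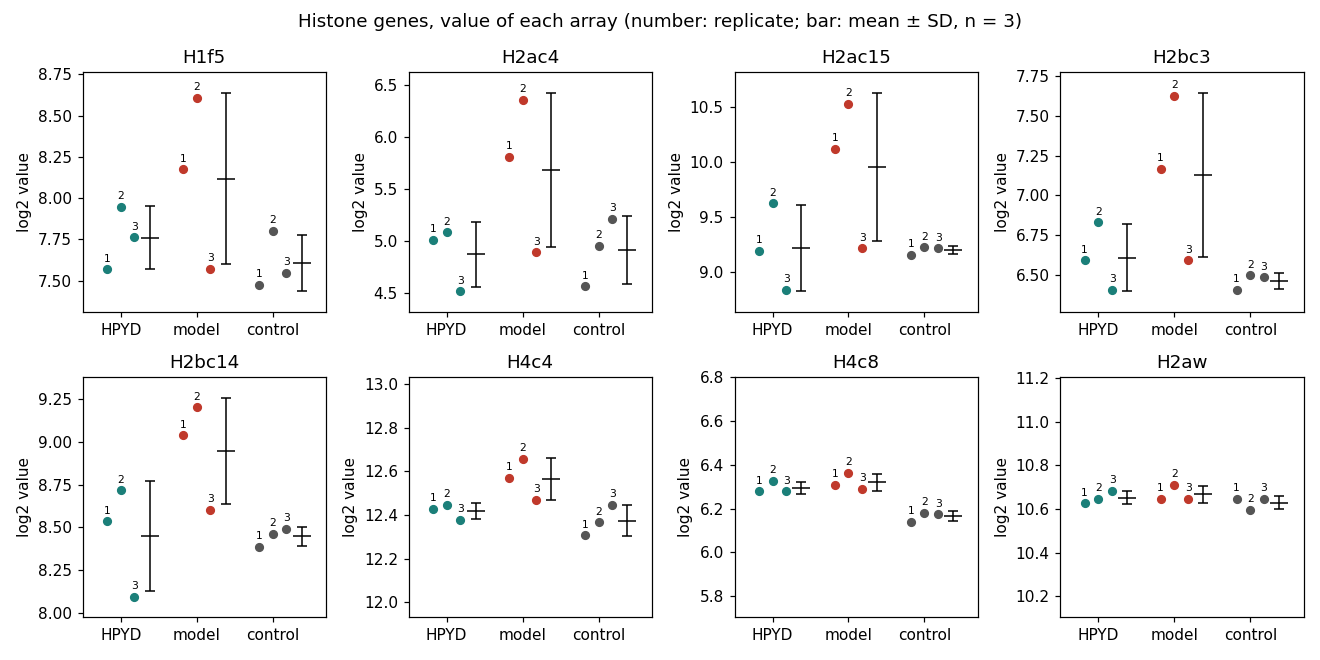
Log2 values of 8 histone genes on each array (points, numbered by replicate) for the HPYD, model and control groups, with the mean ± SD of 3 arrays beside them. Model arrays 1 and 2 are the highest for H1f5, H2ac4, H2ac15, H2bc3 and H2bc14, while H2aw lies between 10.60 and 10.71 on all 9 arrays.

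HPYD and model mice were compared to ask what the peptide changed in the transgenic brains. Only 2 of the 31 genes, H1f6 and H2ac1, had the higher mean in the HPYD group, against 57.5% of all genes, and the median log2 fold change was -0.115, against 0.02 over all genes. An unadjusted p under 0.05 was reached by 4 members, all lower in the HPYD group, against 0.752% of all genes lower and 1.97% in either direction. H2ac4 averaged 4.87 ± 0.31 in the HPYD group and 5.68 ± 0.74 in the model group, a log2 fold change of -0.81 (standard error 0.35). H2ac15 averaged 9.22 ± 0.39 in the HPYD group and 9.96 ± 0.67 in the model group, a log2 fold change of -0.74 (standard error 0.32). The values for H2bc14 and H4c6 were -0.50 (standard error 0.19) and -0.33 (standard error 0.11).

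In each of these 4 genes the arrays of both groups overlapped. Groups without overlap were seen for 2 members, H2bc8 and H4c4, both lower in the HPYD group, against 0.983% of all genes. With all genes adjusted together 0 members passed (limma, lowest adjusted p = 1). Without the array labelled HPYD group 3 the count was 1 and the median log2 fold change -0.105, with -0.64 for H2ac4, -0.55 for H2ac15, -0.32 for H2bc14 and -0.25 for H4c6. The count was 0 without model array 2, 1 without model array 1, 11 without model array 3 and 2 without any one control array, which enter through the shared spread. Here too the share of all genes with 1 array left out was not counted. This comparison shares the model arrays with that of model and control, so a high value in model arrays 1 and 2 enters both with opposite signs.

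HPYD and control mice differed by less. The mean was higher in the HPYD group for 25 of the 31 genes, against 54.3% of all genes, but the median log2 fold change was 0.02, against 0.01 over all genes. Only H4c8 reached an unadjusted p under 0.05, at a log2 fold change of 0.13 (standard error 0.05), against 3.24% of all genes in either direction and 2% with a higher HPYD value. H4c8 and H2bc1 were the 2 members whose HPYD arrays lay above all controls, against 4.78% of all genes. Again 0 members passed the adjustment (limma, lowest adjusted p = 0.86). The count of members with the higher mean was 11 when all arrays were shifted to one median, and was 20 after quantile normalization. Without the array labelled HPYD group 3 the median log2 fold change was 0.06 and the count at an unadjusted p under 0.05 was 2. The count was also 2 without HPYD array 1 and 0 without any one control array, again with no share of all genes counted.

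Many histone genes share their probe sets with near-identical relatives and so could not enter as members. A further 24 probe sets carried only histone symbols, up to 15 of them each, and they held 22 distinct rows: 6 of H2B, 10 of H3, 5 of H4 and 1 of mixed class. The H3 rows had median differences from the control mean of -0.001, 0.67 and -0.18 in HPYD arrays 1, 2 and 3, 0.78, 1.21 and 0.06 in model arrays 1, 2 and 3, and -0.10, 0.05 and 0.04 in the controls. For the H2B rows these were 0.15, 0.50 and -0.30 in HPYD arrays, 0.78, 1.03 and 0.10 in model arrays, and -0.07, 0.10 and -0.03 in control arrays. The H4 rows differed less, at 0.04, 0.10 and -0.01 in HPYD arrays, 0.21, 0.31 and 0.05 in model arrays, and -0.06, 0.04 and 0.01 in control arrays. Model arrays 1 and 2 and HPYD array 2 were thus the high arrays, and model array 3 and HPYD array 1 lay near the controls.

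Between model and control the median log2 fold changes of these shared rows were 0.64 for H2B, 0.68 for H3 and 0.19 for H4, and all 22 had the higher mean in the model group. An unadjusted p under 0.05 was reached by 11 of 22, against 2.87% of all genes with a higher model value. Model arrays lay above all controls for 12 of 22, against 4.83% of all genes. All 24 shared probe sets, identical rows included, were then added to the genes tested. Of all rows 4.97% had an unadjusted p under 0.05 in either direction between model and control and 1.96% between HPYD and model. Between HPYD and model the median log2 fold changes were -0.52, -0.51 and -0.15 for H2B, H3 and H4, with 0 rows at an unadjusted p under 0.05. The adjustment over all rows in limma left 0 shared rows. Their lowest adjusted p was 0.857 between model and control and 1 between HPYD and model. These rows measure overlapping sets of genes and are not independent of each other.

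**Figure D4:**
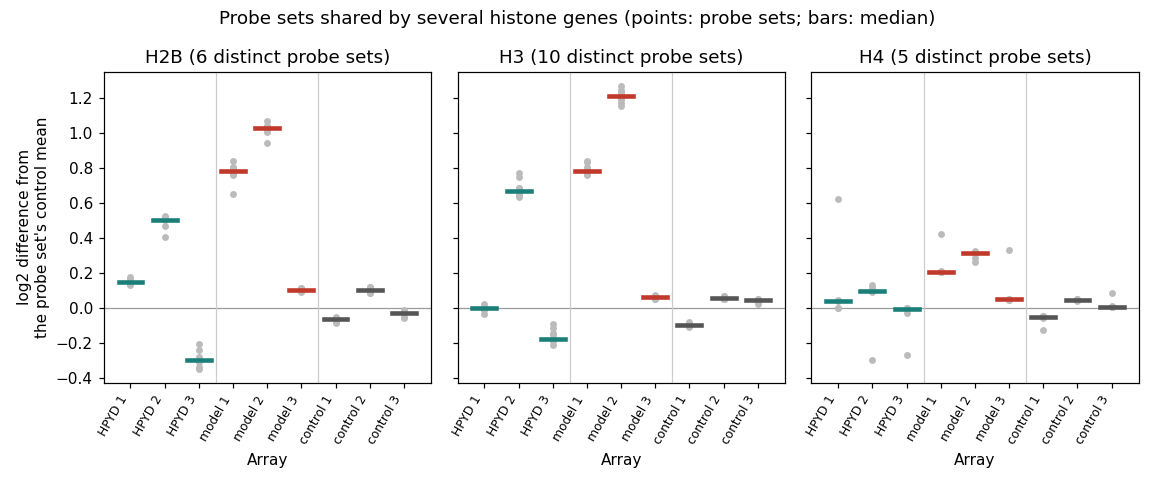
Difference from the probe set's control mean (vertical axis, log2) on each array (horizontal axis) of the 21 distinct probe sets shared by several H2B, H3 or H4 genes, with grey points for probe sets and coloured bars for the median. For H3 the medians were 0.78 in model array 1, 1.21 in model array 2 and 0.67 in HPYD array 2, against 0.06 in model array 3.

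Genes of the histone supply line were set beside the members. Of the list of histone mRNA synthesis and 3′ processing, 20 of 21 genes were measured and the array medians lay between -0.04 and 0.06. Eri1, an exonuclease that trims histone messages, was the 1 gene of these 20 with an unadjusted p under 0.05 between model and control, a share near the 4.92% of all genes, at 8.38, 8.34 and 8.46 in HPYD arrays, 8.35, 8.57 and 8.35 in model arrays, and 8.09, 8.12 and 8.35 in control arrays. The replication-independent histone variants (10 of 12 measured) and the histone chaperones (15 of 16 measured) had 0 genes at that level between model and control, with median log2 fold changes of 0.03 and 0.01. Asf1b, a chaperone of dividing cells, was 6.333, 6.948 and 6.698 in HPYD arrays, 7.099, 7.610 and 6.400 in model arrays, and 6.605, 6.587 and 6.482 in control arrays, with model arrays 1 and 2 again on top. The chaperones as a list did not share this, as 8 of 15 had the higher model mean. All model arrays lay above all controls for Hat1 (0.24) and Nasp (0.10), against 4.83% of all genes. For Nasp the lowest model value, 6.063, was just above the highest control value, 6.059. They lay below all controls for Nap1l1 (-0.25) and Rbbp7 (-0.14), against 4.68% of all genes. In the other lists of this paragraph, Snrpd3 (0.09) and H2az1 (0.07) lay above all controls.

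Genes of dividing cells were highest in model array 2. The DNA replication list (31 of 32 measured) had array medians of 0.02, 0.08 and 0.12 in HPYD arrays 1, 2 and 3, 0.10, 0.39 and 0.01 in model arrays 1, 2 and 3, and between -0.02 and 0.01 in the controls. The array labelled HPYD group 3, where the histone median was low, thus came second. Between model and control 28 of its 31 genes had the higher model mean, against 45% of all genes, and 3 had a higher model value at an unadjusted p under 0.05, against 2.87% of all genes. Pcna, the sliding clamp of the replication fork, was 9.67, 9.62 and 9.64 in HPYD arrays, 9.74, 9.83 and 9.84 in model arrays, and 9.67, 9.54 and 9.65 in control arrays, and was high in all 3 model arrays. The mitosis and cell cycle list (29 of 30 measured) had medians of -0.08, 0.19 and 0.02 in HPYD arrays, 0.40, 0.70 and 0.03 in model arrays, and between -0.02 and 0.04 in the controls, and at an unadjusted p under 0.05 there were 11 genes with a higher and 1 with a lower model mean, against 2.87% and 2.05% of all genes. Cdk1, the mitotic kinase, was 5.953, 6.673 and 6.196 in HPYD arrays, 6.994, 7.660 and 6.196 in model arrays, and 5.965, 6.038 and 5.705 in control arrays.

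Markers of cell types not resident in brain tissue were also high in the arrays in which the histone genes were high. All 20 genes of granulocytes and their precursors were measured, with medians of -0.51, 1.97 and -0.09 in HPYD arrays 1, 2 and 3, 2.77, 2.99 and -0.37 in model arrays 1, 2 and 3, and -0.07, 0.09 and 0.01 in the controls. Their summed linear signal ranged from 1320 to 11800 in HPYD arrays, from 1200 to 21200 in model arrays and from 2170 to 3010 in control arrays. Ms4a3, a gene of granulocyte precursors, was 4.87, 5.84 and 4.94 in HPYD arrays, 6.28, 6.81 and 5.06 in model arrays, and 4.75, 4.62 and 4.73 in control arrays. Of the 20 genes it was the only 1 whose model arrays all lay above all controls, against 4.83% of all genes. Ngp, by contrast, was 12.33, 12.45 and 6.05 in model arrays, and 8.31, 9.13 and 8.50 in control arrays. The 27 skeletal muscle genes, all measured, had medians of 0.04, 0.68 and 0.16 in HPYD arrays, 2.07, 3.61 and 0.09 in model arrays, and between -0.06 and 0.06 in the controls, with a summed linear signal from 3490 to 5650 in HPYD arrays, from 3540 to 35300 in model arrays and from 3240 to 3410 in control arrays. Erythroid precursor genes (12 of 14 measured) had medians of -0.13, 0.60 and 0.14 in HPYD arrays and 0.46, 1.15 and -0.07 in model arrays, with a summed linear signal from 1310 to 2340 in HPYD arrays, from 1650 to 3150 in model arrays and from 1630 to 1820 in control arrays.

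The part of these cells in the histone result was not tested, and the fits that take them into account differed among themselves. With the muscle level of each array as a covariate the median log2 fold change of the histone genes between model and control was 0.06, and 0 genes had an unadjusted p under 0.05. With the granulocyte level as a covariate the median was 0.105 and the count 0. Between HPYD and model the median was -0.03 and the count 0 with the muscle covariate, and -0.08 and 3 with the granulocyte covariate. With the DNA replication level as a covariate, the histone median moved by less than 0.0555 in each comparison. That value is the within-group SD of its array medians. No count at an unadjusted p under 0.05 fell to 0 in that fit. Leaving out model arrays 1 and 2 and HPYD array 2, chosen because their muscle and granulocyte genes were high, left model array 3 as the 1 model array. The medians were then 0.05 between model and control and -0.03 between HPYD and model, which describes that array and tests nothing.

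The remaining lists were less alike. Plaque-associated microglia genes (21 of 22 measured) had medians of 0.74, 1.02 and -0.15 in HPYD arrays and 0.88, 0.52 and 0.72 in model arrays, so that model array 3 lay between model arrays 1 and 2. Neuroblast genes (11 of 12 measured) had negative medians in all 6 APP/PS1-labelled arrays, from -0.23 to -0.08, and 4 of the 11 had the higher model mean. Neurod1, Eomes and Cd24a, named after their values were seen, had model minus control differences of 1.49, 0.93 and 0.90. Each was highest in model array 2, at 11.17, 8.01 and 11.22. Most of the list ran the other way, with -1.14 for Dlx1, -0.60 for Dlx2 and -0.46 for Sox11. For these genes all model arrays lay below all controls, as for 4.68% of all genes. Dlx1 was lowest in model array 2 (6.61) and the array labelled HPYD group 3 (7.07). The summed linear signal of the list ranged from 2340 to 4590 in HPYD arrays, from 2400 to 5810 in model arrays and from 2540 to 2790 in control arrays. Oligodendrocyte precursor genes (9 of 9 measured) lay between -0.11 and 0.03 in the APP/PS1-labelled arrays. B lymphocyte precursor genes (13 of 14 measured) were at 0.15 in HPYD array 2, 0.11 in model array 1 and 0.16 in model array 2, and at or below 0.02 in the other arrays, so that the same 3 arrays were highest as for granulocyte genes. The 8 neuron markers and 7 of the 8 glial markers were measured on every array, with a summed linear signal for neurons from 31300 to 40400 in HPYD arrays, from 31400 to 41300 in model arrays and from 41200 to 43700 in control arrays. The neuron medians were -0.06, -0.07 and -0.38 in HPYD arrays 1, 2 and 3, and -0.03, -0.39 and -0.03 in model arrays 1, 2 and 3. The higher model mean was seen for 0 of the 8, against 45% of all genes. Model array 2 and the array labelled HPYD group 3 thus differed from the others in these markers.

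**Figure D5:**
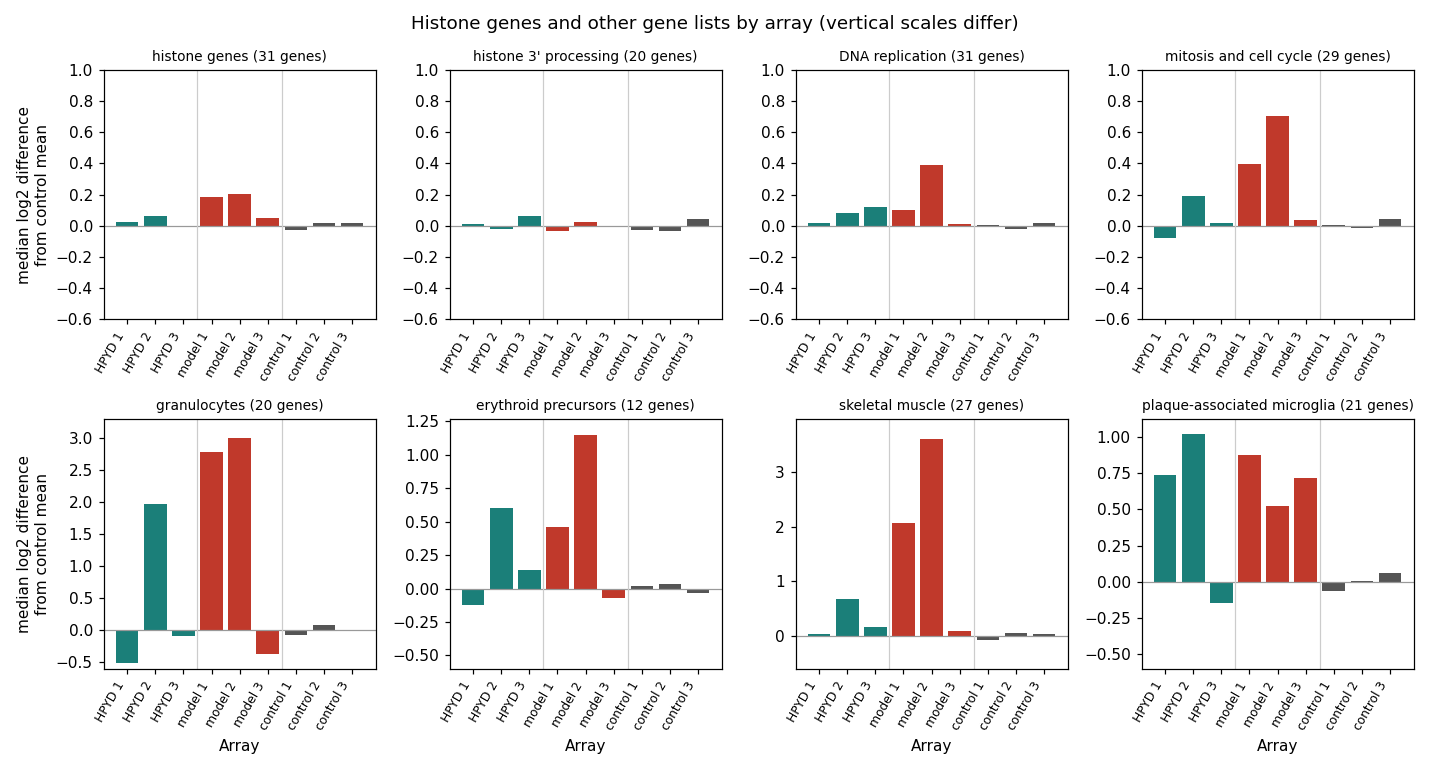
Median difference from control means (vertical axis, log2, scales differ) of the histone genes and 7 other gene lists on each of the 9 arrays (horizontal axis, HPYD, model and control). Model arrays 1 and 2 stand highest for histone, mitosis, granulocyte and muscle genes, whereas plaque-associated microglia genes reach 0.72 in model array 3 as well.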

How the data were processed

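Brain RNA was measured on 9 arrays, 3 per group, grouped by the sample titles. The table deposited by the authors gives log2 expression values, 1 for each probe set on each array. MAS5, with no version, is the tool in the submitters' processing notes. How the background was corrected and the arrays were normalized is not given in the sources used, so values of different probe sets were not set against each other. The values were used as deposited. A probe set with several gene symbols (1621) or none (12146) was left out, and a gene was represented by its probe set of highest mean, which left 19938 genes. The number of columns not used was 0. Older symbols came from the RefSeq genes of GRCm38.p6, to which 21698 Entrez identifiers were matched.

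The 3 groups were fitted together in R 4.3.3 with limma 3.58.1 (lmFit and eBayes, 6 residual and 2.13 prior degrees of freedom), with p-values adjusted over all genes after Benjamini-Hochberg. Class and list levels are medians over genes of the difference from the gene's control mean. The members and lists were chosen with earlier results of these data known. Values per array are given for the 3 members of each class with the smallest p between model and control, the 2 with the smallest p between HPYD and model, the 2 with the highest mean, members on chromosomes 3, 6 and 11, and up to 4 genes of each list. The pseudogene and pairs of genes with small differences are given by their fold change. The fit was tested on simulated data. Alternatives were other normalizations, filters and variance models, array weights, other sets of arrays and members, covariates, a replicate block, and the test named in the methods (one-way variance analysis, then Student-Newman-Keuls).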

Additional observations from a re-analysis of the deposited data

How the results depend on the processing

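With 3 arrays per group and a test over all genes, 0 members passed an adjusted p under 0.05 in any comparison under any alternative, and among the named genes the lowest adjusted p over 21 alternatives was 0.113 between model and control and 0.281 between HPYD and model, both without model array 3. In the fit as reported the members at an unadjusted p under 0.05 numbered 7 (model against control), 4 (HPYD against model) and 1 (HPYD against control). The replicate number as a block gave 10, 5 and 1, left the medians at 0.156, -0.115 and 0.0224 and changed no call at an adjusted p under 0.05. Samples of one number did not deviate together, with correlations of their deviations from the group means between -0.32 and 0.18, so the numbers were not taken as pairs. The cause of the changes below was not tested. For most alternatives the share of all genes was not counted, so the counts describe the members alone.

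For model against control the count was 3 with arrays shifted to one median, and 4 with members below the median level of all genes left out. It was 2 with the Student-Newman-Keuls test, and 20 of 55 with all 24 shared probe sets added, identical rows included. With the muscle or the granulocyte covariate it was 0. It was also 0 without model arrays 1 and 2 and HPYD array 2, a fit that leaves 1 model array, assumed to vary like the other groups, and was chosen with the high arrays known, so its counts of 0 say little. Leaving out 1 array gave 1 to 13. For HPYD against model it was 2 without the 0.333 of genes with the lowest mean, 1 with array weights, with only the 6 arrays compared or with the Student-Newman-Keuls test, and 0 without the 3 arrays or with the muscle covariate. Leaving out 1 array gave 0 to 11. For HPYD against control it was 0 with quantile normalization, one median, the 0.333 of genes with the lowest mean or the members below the median left out, trend and robust estimation, or the granulocyte covariate, and 0 to 2 with 1 array left out. The members with the higher mean were 24 of 31 for model against control with arrays shifted to one median.

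The median log2 fold change for model against control was 0.221 with all 24 shared probe sets added (0.382 for H2B, 0.673 for H3). It was 0.047 without the 3 arrays (-0.0347 for H1, 0.0499 for H2B, 0.0545 for H4). It was 0.0558 with the muscle covariate (-0.0682 for H1, 0.0899 for H2B), and the H1 median was 0.0829 with the granulocyte covariate. For HPYD against model it was -0.186 with the shared probe sets (-0.333 for H2B, -0.508 for H3) and -0.0297 without the 3 arrays (0.0937 for H1, -0.244 for H3, -0.051 for H4). It was -0.0295 with the muscle covariate (0.0911 for H1, -0.0387 for H2B, -0.182 for H3, -0.0624 for H4), and the H4 median was -0.0682 with the granulocyte covariate.

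For model against control, leaving out 1 array moved the medians within 0.119 to 0.172 (H1 0.197 to 0.353, H2A 0.0423 to 0.142, H2B 0.119 to 0.255, H3 -0.0301 to 0.218, H4 0.0896 to 0.172). For HPYD against model they lay within -0.124 to -0.101 (H1 -0.264 to -0.072, H2A -0.096 to -0.0267, H2B -0.195 to -0.11, H3 -0.148 to 0.0409, H4 -0.148 to -0.0524). For HPYD against control they lay within 0.0178 to 0.061 (H1 0.0501 to 0.159, H2A 0.00255 to 0.0315, H2B -0.00155 to 0.0876, H3 -0.0774 to 0.191, H4 -0.000143 to 0.061).

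Single genes changed sign as follows for model against control. Without the 3 arrays, H1f5 was -0.0347, H1f1 -0.0818, H2ac4 -0.0217 and H3c7 0.228. With the muscle covariate, H1f5 was -0.0846, H1f1 -0.0682, H2ac4 -0.022 and H3c7 0.153. H3c7 was 0.0457 with array weights, 0.135 with the granulocyte covariate and 0.0259 with the DNA replication covariate, and H2aw was -0.00629 with one median. For HPYD against model, H1f1 was 0.13 and H3c4 0.0364 without the 3 arrays, and H1f1 was 0.0993 and H3c4 0.0868 with the muscle covariate. H3c4 was 0.0364 with array weights and 0.0457 with the granulocyte covariate. With 1 array left out, H3c15 ranged from -0.0301 to 0.384 and H3c7 from -0.131 to 0.0912 between model and control. Between HPYD and model, H3c15 ranged from -0.2 to 0.0409 and H3c4 from -0.125 to 0.0605.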
